A study of Mus musculus with 12 samples.

Results

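The genes described here make cholesterol, control its synthesis through the transcription factor SREBP2, and move it into and within cells. The list holds 29 genes, and 27 of them had at least 1 probe set annotated to that gene and no other, out of 18193 genes measured that way. Acat2 and Soat2 had no such probe set. RNA was taken from the livers of 3-month-old C57Bl/6 mice and hybridised to Affymetrix GeneChip mouse arrays. The 12 arrays fell into 3 groups of 4, namely wild type mice with no agent, Atp7b-/- mice with no agent, and Atp7b-/- mice given supplemental zinc. Atp7b encodes a copper-transporting ATPase of hepatocytes. The sources used here do not state the zinc dose, its duration, the sex of the mice or how Atp7b was disrupted. They also leave unsaid whether each wild type and untreated array came from its own mouse, so p-values reflect the spread among arrays, which may be partly technical. Whole liver pieces were used, so fewer cells of a type and less RNA per cell cannot be told apart.

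Cholesterol is built from acetyl-CoA through mevalonate and isoprenoid intermediates to squalene, which is closed into a ring and trimmed to cholesterol by a series of endoplasmic reticulum enzymes. When sterols are scarce in that membrane, Scap escorts SREBP2 to the Golgi, where it is cut and freed to enter the nucleus and switch on the genes of synthesis and uptake. When sterols are plentiful, the Insig proteins hold Scap and SREBP2 back. The liver is a main site of this synthesis, and it also takes up lipoprotein cholesterol and sends it into bile.

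Factors that bind beside SREBP2 at such genes include NF-Y, which recognises CCAAT, and Sp1, which recognises GGGCGG. The RefSeq promoter table of build GRCm38.p6, with windows from 250 bases before to 50 bases after each gene's start, held 27 windows of 21 of the measured members. CCAAT, on either strand, was present in the windows of 20 of these 21 genes, and in the windows of 41.1% of the 27025 genes in the table. Scap was the exception. GGGCGG was present for 19 of the 21 genes, against 38.2% of genes. A classic sterol regulatory element, TCACNCCAC, was found for 1 member, Hmgcs1, against 1.44% of genes. No sterol element overlapped a CCAAT box. These are matches of letters only, and the absence of a match says nothing about binding of the factor. The 250 bases upstream of 4 genes whose levels are described at length are printed here from 5′ to 3′ on the gene's strand, with the sterol element and the CCAAT boxes, read on either strand, in capitals. Hmgcs1 lies at chr13:119690101-119690350 on the plus strand, Pmvk (the first of its listed starts) at chr3:89454291-89454540 on the plus strand, Dhcr7 (the last of its listed starts) at chr7:143829964-143830213 on the plus strand, and Sc5d at chr9:42264301-42264550 on the minus strand. For Pmvk and Dhcr7, the start whose window held a CCAAT box was the one shown.
Hmgcs1: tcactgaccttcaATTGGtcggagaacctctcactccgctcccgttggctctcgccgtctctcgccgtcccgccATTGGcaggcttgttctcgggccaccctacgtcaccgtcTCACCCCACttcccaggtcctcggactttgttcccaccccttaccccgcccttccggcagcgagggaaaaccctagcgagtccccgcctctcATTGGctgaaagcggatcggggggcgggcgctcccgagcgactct
Pmvk: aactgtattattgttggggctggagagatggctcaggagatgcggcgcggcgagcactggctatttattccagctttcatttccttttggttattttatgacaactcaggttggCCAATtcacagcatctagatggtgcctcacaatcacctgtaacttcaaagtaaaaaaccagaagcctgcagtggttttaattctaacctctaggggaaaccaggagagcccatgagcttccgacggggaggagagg
Dhcr7: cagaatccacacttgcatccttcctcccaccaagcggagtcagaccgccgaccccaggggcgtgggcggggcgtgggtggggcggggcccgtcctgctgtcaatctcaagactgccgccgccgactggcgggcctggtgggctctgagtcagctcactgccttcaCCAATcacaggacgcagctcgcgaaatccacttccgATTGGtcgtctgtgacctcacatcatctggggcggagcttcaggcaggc
Sc5d: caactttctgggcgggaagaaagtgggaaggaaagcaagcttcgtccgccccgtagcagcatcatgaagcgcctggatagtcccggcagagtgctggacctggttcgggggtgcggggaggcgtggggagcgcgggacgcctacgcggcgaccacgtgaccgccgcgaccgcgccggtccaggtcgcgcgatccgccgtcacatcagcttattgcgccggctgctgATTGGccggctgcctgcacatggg
The sterol element of Hmgcs1 began at position -137 relative to the start, between CCAAT boxes. The Dhcr7 stretch held a pair of boxes, and the Pmvk and Sc5d stretches held 1 each.

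The deposited values are log2 intensities. Each gene is given by its probe set with the highest mean over the 12 arrays. All 27 measured members were tested, with no filter on low values, and their mean levels ran from 6.74 for Ggps1 to 13.26 for Hmgcs1, above the lower quartile of all genes (4.86). Atp7b itself read 8.51, 8.59, 8.61 and 8.69 in wild type, 7.17, 7.26, 7.11 and 6.91 in untreated, and 6.85, 6.92, 6.57 and 6.98 in zinc-treated Atp7b-/- arrays. It was lower in every mutant array than in every wild type array, and the position of its probe set with respect to the disruption is not stated. The 10 hepatocyte markers had group mean levels between 7.91 and 15.1. The median correlation with same-group arrays was 0.991 for untreated replicate 1 and 0.996 for the other 3 untreated arrays. Zinc-treated replicates 2 and 3 carried pancreatic acinar transcripts, with marker means 4.01 and 1.17 above wild type on the log2 scale, while the other 10 arrays lay between -0.22 and 0.10. For the members, calls that change without these arrays are given beside the results. For other genes, only some of these changes are given.

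**Figure D1:**
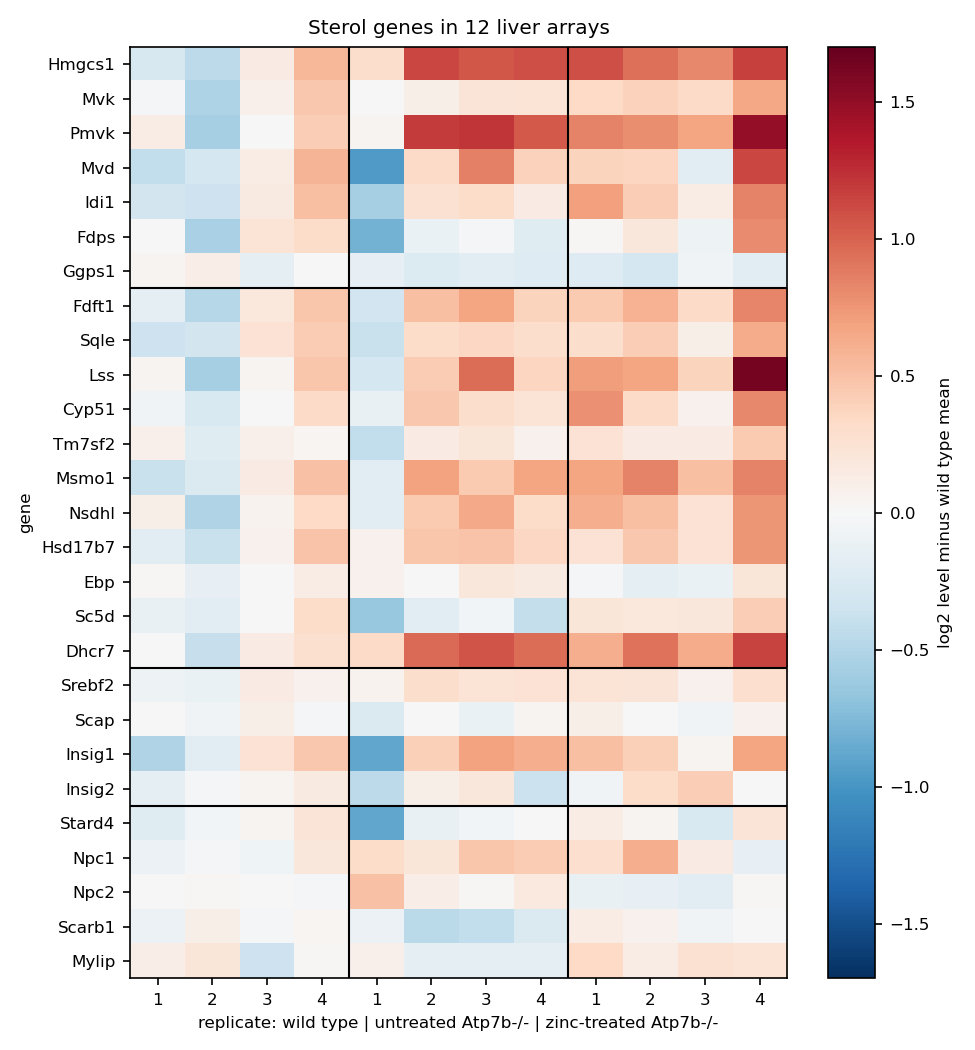
Log2 level minus the wild type mean (colour) of the 27 measured genes (rows, in pathway order) on each of the 12 arrays (columns, by group and replicate). Hmgcs1, Pmvk and Dhcr7 are red in untreated replicates 2 to 4 and in all 4 zinc-treated arrays, and untreated replicate 1 is blue or pale in most rows.

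The comparison of untreated Atp7b-/- with wild type liver asks what differs when the copper transporter is lost. Hmgcs1, Pmvk and Dhcr7 were higher, by 0.83 to 0.90 on the log2 scale, and the lipoprotein receptor Scarb1 was lower by a smaller amount. The other 23 members were not called at a Benjamini-Hochberg adjusted p under 0.05 (limma, fitted over all genes). The called members make up 14.8% of the members, while 24.6% of all 18193 genes were called in this comparison, 14.3% higher and 10.3% lower. The members' median difference was 0.15, against -0.05 over all genes. The difference was above 0 for 15 of the 18 enzymes of synthesis and for 42.0% of all genes.

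Among the enzymes of the mevalonate stage, Hmgcs1 condenses acetyl-CoA with acetoacetyl-CoA to make HMG-CoA. Its levels were 12.36, 12.19, 12.77 and 13.19 in wild type, 12.94, 13.77, 13.68 and 13.73 in untreated, and 13.72, 13.56, 13.45 and 13.79 in zinc-treated arrays. Untreated replicate 1 fell within the wild type range, and the other 3 untreated arrays and all 4 zinc-treated arrays lay above every wild type array. Hmgcs1 was 1.86-fold higher in untreated than in wild type liver (log2 difference 0.90 ± 0.22, SE, limma adjusted p = 0.00836). It was 2.00-fold higher in zinc-treated liver (1.00 ± 0.22, adjusted p = 0.0115). The zinc-treated and untreated groups differed by 0.10 ± 0.22 (adjusted p = 0.828). Both calls against wild type held when each of the 12 arrays was left out in turn, with differences from 0.75 to 1.10 in untreated and from 0.86 to 1.19 in zinc-treated liver.

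Pmvk, which adds a second phosphate to mevalonate, read 9.91, 9.22, 9.80 and 10.20 in wild type, 9.83, 10.97, 10.997 and 10.83 in untreated, and 10.63, 10.57, 10.46 and 11.27 in zinc-treated arrays. Untreated replicate 1 again fell among the wild type arrays, and every zinc-treated array lay above all of them. The difference from wild type was 0.87 ± 0.27 in untreated liver (limma adjusted p = 0.0303) and 0.95 ± 0.27 in zinc-treated liver (adjusted p = 0.0478). These calls depended on single arrays. In untreated liver the call was lost on leaving out any of 6 arrays, namely wild type replicate 1, 2 or 3 or untreated replicate 2, 3 or 4, where the adjusted p ran from 0.051 to 0.0812. In zinc-treated liver it was kept only without wild type replicate 4 or without untreated replicate 1, and the other 10 omissions gave an adjusted p of 0.0523 to 0.135. Without zinc-treated replicates 2 and 3 together, the zinc-treated difference was 1.17 (limma adjusted p = 0.0905).

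The remaining 5 enzymes of this stage were not called in any of the 3 comparisons. Mvk, the first mevalonate kinase, averaged 7.53 ± 0.40 (SD, n = 4) in wild type, 7.67 ± 0.11 in untreated and 7.95 ± 0.15 in zinc-treated liver. Every zinc-treated array lay above every untreated array, with a limma adjusted p of 0.326. Mvd, which decarboxylates mevalonate diphosphate, varied most between arrays of a group, from 7.15 in untreated replicate 1 to 8.96 in untreated replicate 3. Idi1, the isomerase that makes dimethylallyl diphosphate, averaged 12.07 ± 0.41, 12.11 ± 0.41 and 12.59 ± 0.31 in wild type, untreated and zinc-treated liver. Fdps, which makes farnesyl diphosphate, averaged 11.99 ± 0.39, 11.70 ± 0.35 and 12.22 ± 0.40 in the same order. Ggps1, which diverts farnesyl diphosphate to geranylgeranyl diphosphate rather than to sterols, averaged 6.87 ± 0.12, 6.67 ± 0.04 and 6.68 ± 0.10.

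**Figure D2:**
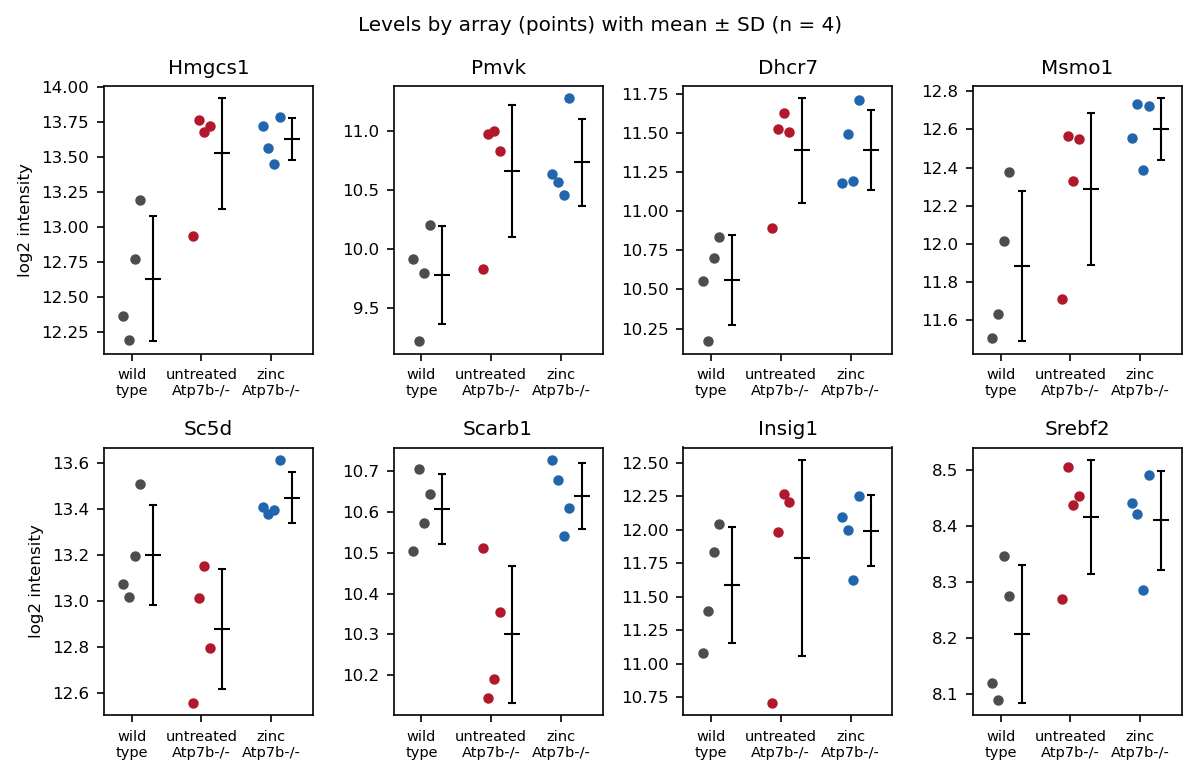
Log2 intensity of 8 genes on each array (points) with the group mean and SD (bars, n = 4), on a separate axis range per gene. The lowest untreated point of Hmgcs1, Pmvk, Dhcr7, Msmo1 and Insig1 is replicate 1, and no zinc-treated point of Sc5d or Scarb1 is as low as the highest untreated point.

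At the sterol end of the pathway, Dhcr7 reduces 7-dehydrocholesterol to cholesterol. It read 10.55, 10.17, 10.70 and 10.83 in wild type, 10.89, 11.52, 11.63 and 11.51 in untreated, and 11.18, 11.49, 11.19 and 11.71 in zinc-treated arrays. No mutant array was as low as any wild type array, and the lowest mutant value was untreated replicate 1. The log2 difference from wild type was 0.83 ± 0.18 in untreated liver (1.77-fold, limma adjusted p = 0.00473) and 0.83 ± 0.18 in zinc-treated liver (1.78-fold, adjusted p = 0.0121). Untreated and zinc-treated liver differed by 0.00 ± 0.18 (adjusted p = 0.992). The calls against wild type held without each array in turn. Without zinc-treated replicates 2 and 3 the zinc-treated difference was 0.88 with an adjusted p of 0.0615, and without untreated replicate 1 the untreated difference was 0.99 (adjusted p = 0.000705).

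Sc5d, the desaturase that makes 7-dehydrocholesterol, the substrate of Dhcr7, had another pattern. It read 13.08, 13.02, 13.20 and 13.51 in wild type, 12.56, 13.01, 13.16 and 12.80 in untreated, and 13.41, 13.38, 13.40 and 13.62 in zinc-treated arrays. The zinc-treated arrays all lay above the untreated ones, and each of these groups overlapped wild type. Zinc-treated liver was 1.48-fold above untreated liver (log2 difference 0.57 ± 0.13, limma adjusted p = 0.0216), and untreated minus wild type was -0.32 ± 0.13 (adjusted p = 0.0944). The call with zinc was lost without untreated replicate 4 (adjusted p = 0.0666) or zinc-treated replicate 4 (adjusted p = 0.0639). It was also lost without zinc-treated replicates 2 and 3 (difference 0.63, adjusted p = 0.0775), and without untreated replicate 1 it was 0.46 (adjusted p = 0.0496).

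Msmo1, the methyl sterol oxidase that starts removal of the methyl groups at C-4, read 11.51, 11.64, 12.02 and 12.38 in wild type, 11.71, 12.56, 12.33 and 12.55 in untreated, and 12.56, 12.73, 12.39 and 12.73 in zinc-treated arrays. The zinc-treated arrays were all above wild type, although zinc-treated replicate 3 and wild type replicate 4 nearly met. The difference was 0.72 ± 0.20 for zinc-treated minus wild type (limma adjusted p = 0.0488) and 0.40 ± 0.20 for untreated minus wild type (adjusted p = 0.163). Leaving out any array other than wild type replicate 4 or untreated replicate 1 ended the zinc-treated call, with an adjusted p from 0.0548 to 0.142, and without zinc-treated replicates 2 and 3 together the difference was 0.76 (limma adjusted p = 0.156). Without untreated replicate 1, Msmo1 was higher in untreated than in wild type liver (0.60, adjusted p = 0.0278).

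The other 8 enzymes of the sterol stage were not called in any of the 3 comparisons over all arrays. Fdft1, squalene synthase, averaged 11.32 ± 0.42 (SD, n = 4) in wild type, 11.63 ± 0.44 in untreated and 11.87 ± 0.21 in zinc-treated liver. Sqle, squalene epoxidase, averaged 10.78 ± 0.40, 10.93 ± 0.35 and 11.14 ± 0.22. Lss, which closes the ring to lanosterol, averaged 9.51 ± 0.43, 9.88 ± 0.51 and 10.36 ± 0.54, and its zinc-treated difference from wild type, 0.85 ± 0.29, had a limma adjusted p of 0.104. This was the largest uncalled difference of any member. An alternative setting left out probe sets with names ending in _x_at, _s_at or _a_at. Lss was then read by another probe set and was called (1.18, limma adjusted p = 0.0454). Cyp51 (lanosterol demethylase) differed from wild type by 0.22 ± 0.18 in untreated and 0.50 ± 0.18 in zinc-treated liver. It was higher in zinc-treated than in wild type liver without zinc-treated replicates 2 and 3 (0.80, limma adjusted p = 0.0262) and without zinc-treated replicate 3 alone (0.64, adjusted p = 0.0431). Nsdhl and Hsd17b7, which act with Msmo1 in C-4 demethylation, differed by 0.31 ± 0.19 and 0.34 ± 0.17 in untreated and by 0.53 ± 0.19 and 0.43 ± 0.17 in zinc-treated liver. Tm7sf2, a sterol reductase, differed from wild type by 0.00 ± 0.13 in untreated liver, and all 4 of its zinc-treated arrays lay above wild type (0.24 ± 0.13, adjusted p = 0.305). Ebp, the sterol isomerase, stayed within 12.11 to 12.49 on every array.

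Of the 4 control genes, 0 were called in any comparison by limma, and at an unadjusted p under 0.05 Srebf2 alone was higher, in both comparisons with wild type, where 19.1% and 11.4% of all genes were higher at that threshold. Srebf2, which encodes SREBP2, read 8.12, 8.09, 8.35 and 8.28 in wild type, 8.27, 8.51, 8.44 and 8.45 in untreated, and 8.44, 8.42, 8.29 and 8.49 in zinc-treated arrays. Untreated replicate 1 and zinc-treated replicate 3 lay within the wild type range, and the other mutant arrays lay above it. The differences from wild type were 0.21 ± 0.08 (limma adjusted p = 0.0851) and 0.20 ± 0.08 (adjusted p = 0.174), and without untreated replicate 1 the first was 0.26 (adjusted p = 0.0467). Insig1, a retention factor whose gene is itself a target of SREBP2, read 10.71 in untreated replicate 1, the lowest of all 12 arrays, and between 11.99 and 12.27 in the other untreated arrays. Its untreated minus wild type difference was 0.21 ± 0.31. Scap, the escort protein, averaged 11.004 ± 0.07 (SD, n = 4), 10.93 ± 0.13 and 11.03 ± 0.07 in wild type, untreated and zinc-treated liver. Insig2, the second retention factor, averaged 11.95 ± 0.13, 11.82 ± 0.32 and 12.12 ± 0.23. Another probe set of Insig2, tested on its own, was lower in untreated liver (-0.74, limma adjusted p = 0.00717) and higher with zinc (0.90, adjusted p = 0.00787).

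Among the genes of uptake and transport, Scarb1 encodes the receptor SR-BI, which takes cholesteryl esters from high density lipoprotein. It read 10.51, 10.70, 10.57 and 10.64 in wild type, 10.51, 10.14, 10.19 and 10.36 in untreated, and 10.73, 10.68, 10.54 and 10.61 in zinc-treated arrays. Untreated replicates 2 to 4 lay below all other arrays, and untreated replicate 1 lay within the wild type range. The difference was -0.31 ± 0.09 for untreated minus wild type (limma adjusted p = 0.0242) and 0.34 ± 0.09 for zinc-treated minus untreated (adjusted p = 0.0391). Zinc-treated minus wild type was 0.03 ± 0.09. The first call was lost without wild type replicate 2 or untreated replicate 2 or 3 (adjusted p 0.0604 to 0.0721). The second was kept without wild type replicate 1, 2 or 4 or untreated replicate 1, and lost without each of the other 8 arrays (adjusted p 0.0507 to 0.102). Without zinc-treated replicates 2 and 3 together it was 0.37 (limma adjusted p = 0.123). The other probe sets of Scarb1, each tested on its own, were not called. They differed by -0.115 and -0.24 in untreated minus wild type (limma adjusted p = 0.632 and 0.18). In zinc-treated minus untreated they differed by 0.30 and 0.335 (adjusted p = 0.317 and 0.137). With all probe sets of the gene averaged, both calls were lost (-0.22 and 0.32, adjusted p = 0.169 and 0.115).

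Npc1 and Npc2 encode the proteins that pass cholesterol out of lysosomes. Npc1 read 8.77, 8.84, 8.78 and 9.06 in wild type and 9.17, 9.08, 9.33 and 9.30 in untreated arrays, with no overlap (0.36 ± 0.13, limma adjusted p = 0.0661, or 0.0357 in the fit without zinc-treated replicates 2 and 3). Npc2 read 11.31, 11.31, 11.30 and 11.27 in wild type, 11.79, 11.42, 11.32 and 11.46 in untreated, and 11.17, 11.16, 11.13 and 11.32 in zinc-treated arrays. The untreated arrays of Npc2 lay above both other groups, nearly touching each, and neither difference was called (adjusted p = 0.135 and 0.0736). In all, 3 of 27 members had untreated arrays wholly above wild type and 0 wholly below, against 14.3% and 12.1% of all genes (26.4% in either direction). Mylip, which marks lipoprotein receptors for degradation, averaged 8.09 ± 0.24 (SD, n = 4), 7.98 ± 0.12 and 8.33 ± 0.08 in wild type, untreated and zinc-treated liver. Stard4, a carrier of sterol between membranes, averaged 10.12 ± 0.18, 9.86 ± 0.42 and 10.16 ± 0.21.

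Setting zinc-treated against untreated Atp7b-/- liver asks what differs with zinc in the mutant. It shares the untreated arrays with the comparison above. Sc5d and Scarb1 were higher with zinc and no member was lower, so that 7.41% of the members were called against 6.54% of all genes (1.7% higher and 4.84% lower). The members' median difference was 0.24, against 0.01 over all genes. The difference was above 0 for 17 of the 18 enzymes and for 52.8% of all genes. The zinc-treated arrays lay wholly above the untreated ones for 4 members (Mvk, Sc5d, Scarb1 and Mylip) and wholly below for 1 (Npc2), against 5.93% and 9.39% of all genes (15.3% in either direction). At an unadjusted p under 0.05, 4 members were higher and 1 lower, against 8.84% and 13.1% of all genes. Without untreated replicate 1 the members' median was 0.05, against 0.01 over all genes. In that setting 12 of the 18 enzymes had a higher mean with zinc than without. The zinc-treated arrays overlapped untreated replicates 2 to 4 for 16 of the 18 enzymes. The matching shares of all genes were not computed, so these counts are not read as a result about the enzymes. Without zinc-treated replicates 2 and 3, 0 members were called by limma and the members' median was 0.34. At an unadjusted p under 0.05, 7 members were then higher, against 6.77% of all genes, and 614 genes were called after adjustment.

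The comparison of zinc-treated Atp7b-/- with wild type liver asks what remains different with zinc. It shares arrays with both comparisons above. Hmgcs1, Pmvk, Dhcr7 and Msmo1 were higher and 0 members were lower by limma (13 higher and 1 lower at an unadjusted p under 0.05, against 11.4% and 10.3% of all genes), which is 14.8% of the members against 7.62% of all genes (4.89% higher and 2.73% lower). The members' median difference was 0.36, against -0.02 over all genes, and the median of the 18 enzymes was 0.46. The difference was above 0 for 16 of the 18 enzymes and for 44.3% of all genes. The zinc-treated arrays lay wholly above wild type for 5 members, namely Hmgcs1, Pmvk, Tm7sf2, Msmo1 and Dhcr7, against 7.88% of all genes, and 0 lay wholly below, against 6.45% (14.3% in either direction). Without zinc-treated replicates 2 and 3, 2 members were called, Hmgcs1 and Cyp51, against 2.87% of all genes called higher and 0.967% called lower. Pmvk, Dhcr7 and Msmo1 were then not called, Cyp51 was called there but not over all arrays, and the members' median was 0.47.

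**Figure D3:**
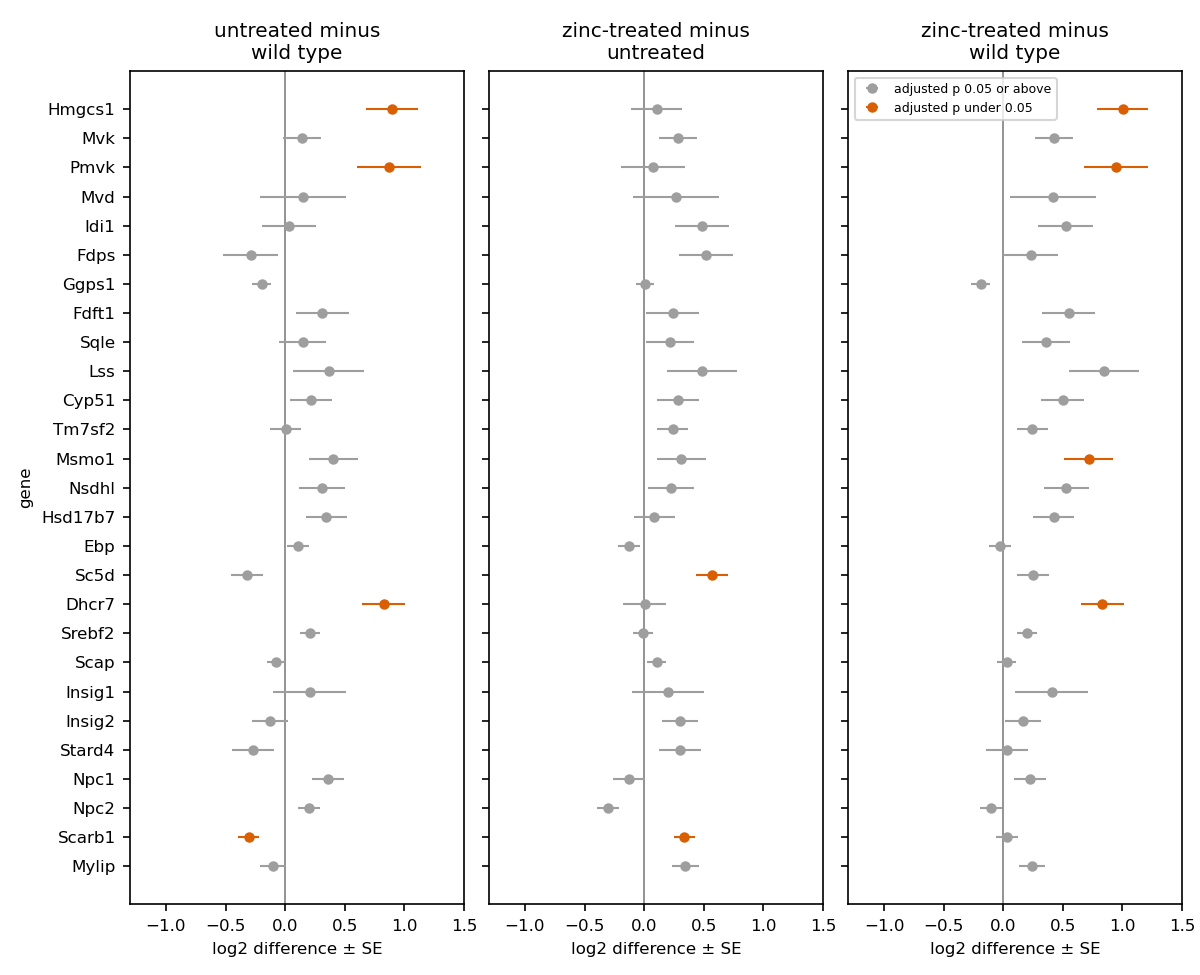
Log2 difference (x axis) with its SE from limma for each of the 27 genes (rows) in the 3 comparisons (panels), with genes at an adjusted p under 0.05 in orange. Hmgcs1, Pmvk and Dhcr7 are orange against wild type in both mutant groups and lie near 0 in the middle panel, where Sc5d and Scarb1 are orange.

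The enzymes varied together between arrays of the same group. In wild type liver, replicate 4 was highest for 16 of the 18 enzymes and replicate 2 lowest for 14. In untreated liver, replicate 1 was lowest for 16 and replicate 3 highest for 13. In zinc-treated liver, replicate 4 was highest for 16 and replicate 3 lowest for 13. After each gene was centred on its group means, 16 of the 18 enzymes correlated above 0.8 with the mean of the other enzymes over the 12 arrays, which share their RNA and normalization. The exceptions were Ebp (r = 0.66) and Ggps1 (r = -0.50). Insig1 (r = 0.87), Stard4 (r = 0.85) and Srebf2 (r = 0.84) varied with the enzymes as well, whereas Mylip (r = -0.53), Scarb1 (r = -0.48) and Npc2 (r = -0.45) ran the other way. Within a group, the median SD of the enzymes was 0.39 in wild type, 0.35 in untreated and 0.22 in zinc-treated liver, against 0.14, 0.13 and 0.12 for all genes above the median level.

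As a mean over the 18 enzymes, the wild type arrays stood at -0.10, -0.35, 0.09 and 0.37 relative to the wild type mean. The untreated arrays stood at -0.23, 0.38, 0.48 and 0.32, and the zinc-treated arrays at 0.44, 0.43, 0.24 and 0.80. Wild type replicate 4 lay between the mutant arrays, and untreated replicate 1 between wild type replicates 1 and 2. The group means followed the order wild type, untreated, zinc-treated for 14 of the 18 enzymes, and for 9 of 18 when untreated replicate 1 was left out. The share of all genes in this order was not computed. Since the enzymes varied together, these counts are not separate observations.

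Untreated replicate 1 was below each of the other 3 untreated arrays for 21 of the 27 members and above them for 4, while it was below for 31.7% and above for 32.8% of all genes. This array was already known to differ from its group when these genes were chosen, so the counts describe it and do not test it. Its median gap to the mean of the other 3 was -0.68 for the enzymes and 0.01 for all genes. The gap was widest for Mvd (-1.48), Insig1 (-1.45) and Pmvk (-1.10). Npc2, Scarb1, Mylip and Ggps1 were the 4 genes that were higher on it. Without this array, 5 of the 27 members were higher in untreated than in wild type liver, namely Hmgcs1, Pmvk, Dhcr7, Msmo1 and Srebf2, and Scarb1 was lower. Of all 18193 genes, 4104 were then called, 2481 of them higher. The median of the enzymes moved from 0.18 to 0.38 without this array.

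Markers of macrophages also differed between groups and between arrays of a group. Of the 10 markers, 7 were lower in untreated than in wild type liver (median -0.68), where 10.3% of all genes were called lower, and every marker had group means above the lower quartile of all genes. Their mean on an array, relative to wild type, ran from -0.49 to 0.44 in wild type, from -0.94 to 0.07 in untreated and from -0.74 to -0.38 in zinc-treated liver. Among the wild type arrays it was highest in replicate 2 and lowest in replicate 4, and among the untreated arrays it was highest in replicate 1, the reverse of the enzymes. Among untreated replicates 2 to 4 the reverse order did not hold, since replicate 3 had the highest enzymes (0.48) and also the highest markers (-0.67). The zinc-treated arrays did not show this reverse order either. Their replicate 4 had the highest enzymes and the second highest markers (-0.49), and their replicate 1 had the lowest markers (-0.74) with the second highest enzymes. Without untreated replicate 1, 9 of the 10 markers were lower in untreated than in wild type liver, and without zinc-treated replicates 2 and 3, 5 were. The log2 difference between 3′ and 5′ control probe sets (actin and Gapdh), which reflects RNA integrity, was 0.79 to 0.88 in untreated and 0.54 to 0.78 in the other arrays, so that it cannot be told apart from the untreated group. In wild type replicates 1 to 4 this difference was 0.72, 0.78, 0.71 and 0.62, in the reverse order of the enzymes. Zinc-treated replicate 4, with the highest enzymes, had the lowest value of all arrays (0.54). The untreated arrays went otherwise: replicate 1, with the lowest enzymes, had the lowest value of its group (0.79). Markers of other liver cells differed too. Of 10 endothelial markers, 2 were higher in untreated than in wild type liver, Tek (1.54) and Stab1 (0.35), and 3 were lower, Clec4g (-0.82), Lyve1 (-0.80) and Pecam1 (-0.38). Of 10 hepatocyte markers, Ass1 was higher (1.28, limma adjusted p = 0.027) and Hnf4a lower (-0.25, adjusted p = 0.0233, or 0.0572 without untreated replicate 1). Of 6 measured cholangiocyte markers 1 was higher, Krt19 (0.47). In zinc-treated minus untreated liver over all arrays, Clec4g (0.43), Reln (0.61) and Col3a1 (0.745) were higher, against 1.7% of all genes. Reln and Col3a1 were among 10 stellate and fibroblast markers. Tek (-1.06) and the hepatocyte marker Tat (-0.72) were lower, against 4.84%. Neither was called without zinc-treated replicates 2 and 3 (limma adjusted p = 0.0631 and 0.194). Tat was also lost without untreated replicate 1 (adjusted p = 0.0609). The part of these measures in the enzyme levels was not tested.

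**Figure D4:**
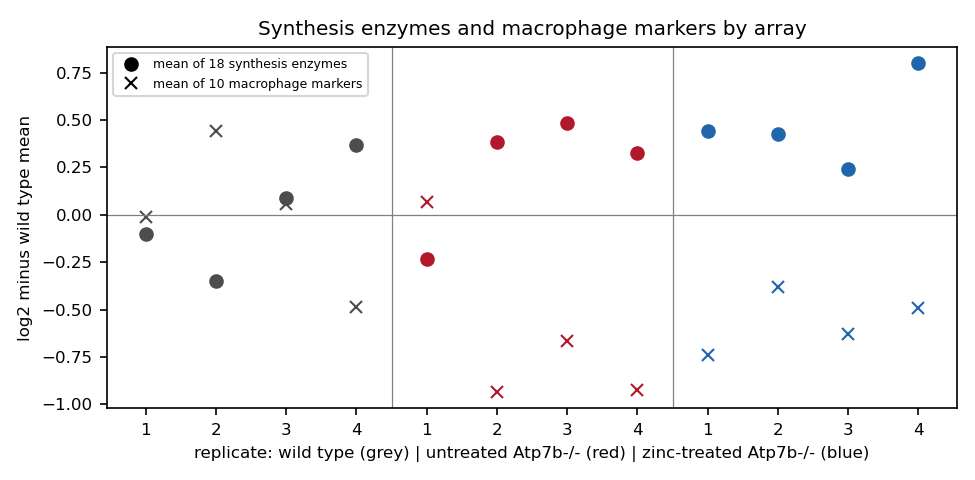
Mean log2 level relative to the wild type mean (y axis) of the 18 synthesis enzymes (dots) and of the 10 macrophage markers (crosses) on each of the 12 arrays. Wild type replicate 2 and untreated replicate 1 have the enzymes low and the markers high, and in the zinc-treated arrays all dots lie above 0 and all crosses below.

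Genes outside the list were set against the mean of the enzymes in the same group-centred way, over 8832 genes above the median level. Rdh11, a retinol dehydrogenase, followed it most closely (r = 0.98 over 12 arrays, 0.97 without untreated replicate 1). Rdh11 was also higher in both mutant groups, by 1.16 in untreated (limma adjusted p = 0.00804) and 1.29 in zinc-treated liver (adjusted p = 0.0112). Next came Rassf6 (0.97), Tmem254a (0.97), Cyb5b (0.96), Gpam (0.95), Pxdc1 (0.94), Celsr1 (0.94), Gstm7 (0.93), Pcyt2 (0.93) and Tubb2a (0.93). Gpam, the first acyltransferase of glycerolipid synthesis, differed from wild type by 0.02 and 0.04, and neither difference was called. These likenesses describe 12 arrays and carry no test.

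Of the 62 probe sets of the members, each tested on its own among 34945 probe sets, 7 were higher and 4 lower in untreated than in wild type liver (21.3% of all probe sets were called). In zinc-treated minus untreated liver 3 were higher and 0 lower (5.21% of all), and in zinc-treated minus wild type liver 6 were higher and 0 lower (5.85% of all). All 5 probe sets of Hmgcs1 were higher in untreated liver, by 0.77 to 1.81. For Stard4, the brightest probe set differed by -0.27 (limma adjusted p = 0.297), while the other 2 were lower by -0.77 (adjusted p = 0.00793) and -1.19 (adjusted p = 0.00571). For Insig2, a second probe set was lower in untreated liver (-0.74, adjusted p = 0.00717) and higher with zinc (0.90, adjusted p = 0.00787), where the brightest differed by -0.13 and 0.30 and was not called. The 3 probe sets of Sc5d differed by -0.32, -0.84 and -0.73 in untreated liver, none of them called. A second probe set of Lss differed by 0.95 (adjusted p = 0.0535) in untreated liver and by 1.18 in zinc-treated liver, where it was among the 6 called higher. For 7 of the 18 members with several probe sets, namely Cyp51, Fdft1, Ggps1, Hsd17b7, Insig2, Npc2 and Scap, the probe sets disagreed in the sign of untreated minus wild type. Which transcript regions these probe sets read was not analysed here.

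**Figure D5:**
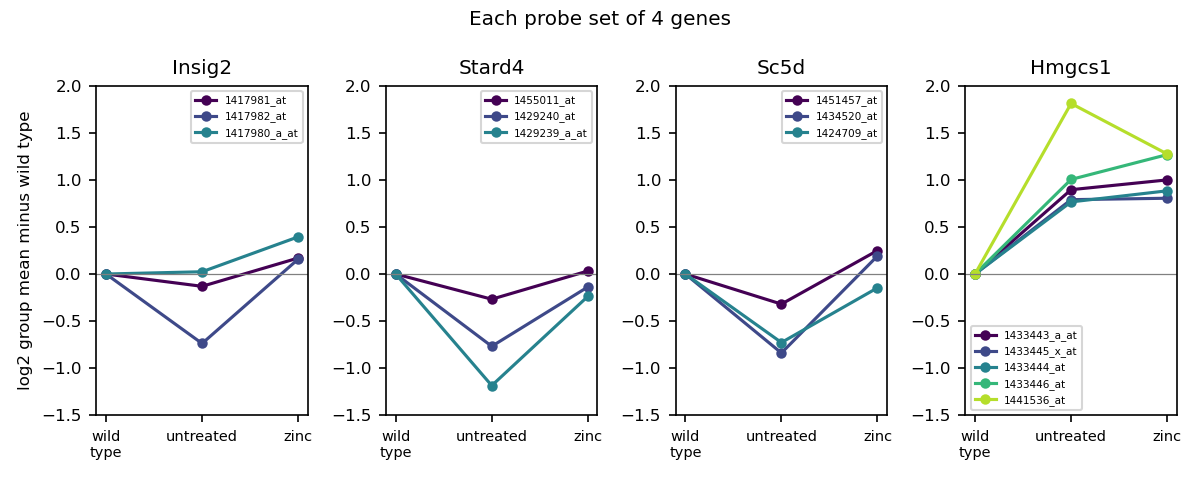
Group mean minus wild type (log2, y axis) of every probe set of Insig2, Stard4, Sc5d and Hmgcs1 in the 3 groups (x axis), 1 line per probe set, with the brightest listed first. The Stard4 and Sc5d lines lie below 0 in untreated liver by unequal amounts, 1 of the 3 Insig2 lines lies well below the others, and all 5 Hmgcs1 lines lie above 0.

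Neighbouring pathways gave a further set of values in untreated minus wild type liver, where 24.6% of all genes were called. Of 8 genes measured for SREBP cleavage and sterol-regulated degradation, 2 were higher, namely Mbtps2, a protease that releases SREBPs (0.45, limma adjusted p = 0.00175), and Erlin2 (0.33, adjusted p = 0.00629). Of 9 genes of isoprenoid branches, 4 were higher, among them Dhdds, which makes dolichol precursors (0.71, adjusted p = 0.000789), Rabggta (0.41) and Coq2 of ubiquinone synthesis (0.41). The other was Fntb (0.35, limma adjusted p = 0.0254, or 0.0588 without untreated replicate 1). Without that array Nus1 of this list was higher (0.29, adjusted p = 0.0339). Dhdds was also higher in zinc-treated than in wild type liver (0.52, limma adjusted p = 0.0166), but not without zinc-treated replicates 2 and 3 (0.38, adjusted p = 0.185). Of 11 genes of other sterol transport and ester turnover, 4 were higher, with Gramd1c, a carrier of plasma membrane cholesterol, at 0.69 (adjusted p = 0.000104) and at 0.54 in zinc-treated minus wild type (adjusted p = 0.00213). The others were Gramd1a, Tmem97 and Gramd1b, the last with group means from 4.28 to 4.63, below the lower quartile of all genes (4.86). Without untreated replicate 1 this list had 2 higher, Gramd1c and Tmem97, and 1 lower, Nceh1, a cholesteryl ester hydrolase (-0.40, limma adjusted p = 0.023).

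Of 7 genes of the sterol sensor LXR and of efflux, 3 were lower in untreated liver, namely the efflux pump Abca1 (-0.39, limma adjusted p = 0.00248), the biliary sterol transporter Abcg8 (-0.50, adjusted p = 0.00655) and the plasma esterifying enzyme Lcat (-0.43, adjusted p = 0.0048). Nr1h3, which encodes LXRα, was higher in untreated liver (0.32, adjusted p = 0.0315) and lower with zinc (-0.35, adjusted p = 0.0489). Neither Nr1h3 call held without untreated replicate 1 (0.24 and -0.28, limma adjusted p = 0.0815 and 0.114), and the second was also lost without zinc-treated replicates 2 and 3 (adjusted p = 0.194). Of 3 electron donors of sterol oxidation, Cyb5r3 was higher in untreated liver (0.28) and lower with zinc (-0.35, adjusted p = 0.0136). Of 11 genes of SREBP1 and fatty acid synthesis, Acaca was higher (0.63, adjusted p = 0.0201) and Fads2 lower (-0.47, adjusted p = 0.0245), and without untreated replicate 1 Acss2 (0.84) and Me1 (0.56) were higher as well. In zinc-treated minus untreated liver, 2 of the 49 measured genes of these 6 lists were called, Nr1h3 and Cyb5r3, both lower, against 6.54% of all genes.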

How the data were processed

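RNA from mouse liver was measured on 12 arrays in 3 groups of 4. The deposited table holds log2 intensities of 45101 probe sets, with the authors' background correction and normalization between arrays not given in the sources used here. Values ran from 2.22 to 15.2, array medians from 5.63 to 5.71, no value was missing, and no 2 arrays were identical. They were used as deposited. The 64 control probe sets were left out, and 34945 probe sets with exactly 1 gene symbol in the platform annotation were kept (932 had several, 9160 none). Each of 18193 genes was represented by its brightest probe set on average over the 12 arrays.

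Group means were fitted over all 12 arrays with limma 3.58.1 in R 4.3.3 (lmFit, contrasts.fit, eBayes), and p-values were adjusted by Benjamini-Hochberg over all genes, with calls at 0.05. The fit was tested on simulated data. Likeness between genes is Pearson's r over 12 arrays after centring on group means. The genes named outside the members are, per list, up to 3 called genes with the smallest adjusted p, and the 10 genes most like the enzymes; Atp7b checks the labels. Nr1h3 in untreated liver was added with its zinc value. Tmem97 and Fntb, called but beyond the first 3 of their lists, were also added. So were Nceh1, Acss2, Me1 and Nus1, called without untreated replicate 1 but not over all arrays. Cell type markers were named from their own lists. The members and lists were chosen with earlier results of these data known. In all, 25 alternative settings were run, and a fit of every probe set was added after the data were seen. Promoter sequences are from RefSeq, GRCm38.p6. Precision is limited by having 4 arrays per group.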

Additional observations from a re-analysis of the deposited data

Results flagged for a closer look

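Of 81 sets of 4 arrays tested (27 genes in 3 groups), 7 held 1 array far from the other 3, with a gap to its nearest neighbour above Dixon's critical value for 4 samples. Chance gives about 1 such set in 20 where no array is known beforehand to differ. Of the 7 sets, 6 concerned untreated replicate 1. That array was already known to differ from its group when these genes were chosen, so the flags describe it and do not test it. On that array Hmgcs1 read 12.935 (next 13.682), Pmvk 9.831 (next 10.832), Sqle 10.397 (next 11.079), Dhcr7 10.894 (next 11.508) and Stard4 9.235 (next 9.994), each the lowest of its group. Mylip read 8.169 on it (next 7.931), the highest of its group. The remaining one was Sc5d in zinc-treated replicate 4, at 13.616 (next 13.41), the highest of its group. The genes share arrays, so these are not 7 separate observations.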

How the results depend on the processing

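No call of a member reversed under any of the 25 settings, and 63 uncalled values changed sign. In all, 68 member calls were lost and 28 gained. Hmgcs1 lost its calls only when a minimum change of 0.5 (log2) was tested, and Dhcr7 only then and, in zinc-treated minus wild type, without zinc-treated replicates 2 and 3. With that minimum change, limma called 0 members in any comparison (at an unadjusted p under 0.05, Hmgcs1 and Dhcr7 in both comparisons with wild type), and the genes called fell to 555, 77 and 152 in untreated minus wild type, zinc-treated minus untreated and zinc-treated minus wild type, from 4480, 1190 and 1386. Another setting left out probe sets with names ending in _x_at, _s_at or _a_at, so that Pmvk and Scarb1 were unmeasured and 25 members measured. In untreated minus wild type, the members called lower numbered 2 under quantile normalization and 0 under median centring or without these suffixes. In zinc-treated minus untreated, the members called higher numbered 1 under median centring, 1 without these suffixes and 0 when all probe sets of a gene were averaged. There, 1 member was lower (Npc2) once genes under the median level were left out. Array weights gave 1861 genes there. Called genes in that comparison were higher in 26.0% as deposited and in 40.2% under quantile normalization. In zinc-treated minus wild type, trend and robust settings left 2 members higher. Without zinc-treated replicates 2 and 3, 0 members were higher in zinc-treated minus untreated (614 genes called) and 2 in zinc-treated minus wild type (699 genes). Without untreated replicate 1 as well, the members higher numbered 5 in untreated minus wild type and 1 in zinc-treated minus untreated (598 genes), and 881 genes were called in zinc-treated minus wild type.

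With each array left out in turn, the members called in untreated minus wild type numbered 2 to 6 higher and 0 to 2 lower, in zinc-treated minus untreated 0 to 2 higher and 0 to 1 lower, and in zinc-treated minus wild type 2 to 6 higher. The genes called ranged over 3292 to 4495, 689 to 1158 (the lowest without untreated replicate 4) and 932 to 1639, and the members' medians over 0.06 to 0.29, 0.05 to 0.31 and 0.26 to 0.51. Pairing of same-numbered arrays was weak and mixed. Their deviations correlated above 0.1 in 2, 0 and 3 of 4 pairs, with the highest r at 0.237. Each number was its own best match in 2, 1 and 2 of 4. With the replicate block, 1 member was higher in zinc-treated minus untreated (Scarb1 had an adjusted p of 0.0568), and 4449, 1171 and 1353 genes were called. The cause of these changes was not tested.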
